A study of Mus musculus with 10 samples.

Results

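A group of 10 genes that clear drugs, dietary compounds and hormones from gut and liver were followed, out of 18193 genes with a probe set of their own. They are the cytochrome P450 genes Cyp1a1, Cyp1a2, Cyp2b10, Cyp2c55, Cyp2c65, Cyp2e1 and Cyp3a11, the epoxide hydrolase Ephx1, the glucuronosyltransferase Ugt2b5 and the efflux pump Abcb1a. All probe sets that carry exactly 1 of these symbols were taken, which gave 13 probe sets: 3 for Cyp2b10, 2 for Abcb1a and 1 for each of the others. The arrays came from male mice of the outbred ICR stock, 28 months old when tissues were taken, and fed since 8 months of age on the AIN-93 diet alone (control) or on that diet with 1 to 2% of LB81, a yogurt named for its starter strains. Each mouse was housed singly under specific-pathogen-free conditions. RNA of 9 control mice or 10 yogurt-fed mice was pooled for jejunum, ileum, distal colon, liver and spleen, so that each tissue had 1 array per diet and 10 arrays were made in all. Mice were therefore averaged before the measurement, and the diet ratios given for single tissues carry no replicate check and no test.

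Drug metabolism runs in steps. P450 enzymes of the first 3 families oxidise lipophilic compounds in the endoplasmic reticulum, epoxide hydrolase opens the reactive epoxides that some of these reactions leave, glucuronosyltransferases attach a sugar acid that makes the product soluble, and pumps of the ABC family carry compounds and conjugates out of the cell. The aryl hydrocarbon receptor, which binds planar aromatic compounds including plant and microbial indoles, drives Cyp1a1 and Cyp1a2, while the nuclear receptors CAR (Nr1i3) and PXR (Nr1i2) drive Cyp2b10 and Cyp3a11. Liver and the absorptive epithelium of the gut are the main sites of these enzymes.

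The values are log2 expression values as the authors deposited them, between 2.71 and 14.76 over all arrays. An array's median, between 5.42 and 5.50, was taken as its floor, below which a value was not counted as measured. By this rule 12 of the 13 probe sets were above the floor on at least 2 arrays, 1 (Ephx1) was above it on all 10, and the Cyp1a1 probe set was never above it. The control and yogurt arrays of each tissue correlated at 0.991 to 0.994 (Spearman's rho across probe sets, which are not independent). Hepatocyte markers summed to 104371 and 105591 on the linear scale in the liver pools against at most 7388 elsewhere, and lymphocyte markers to 12714 and 12348 in the spleen pools against at most 1325 elsewhere. The distal genes Hoxb13, Hoxd13 and Hoxa13 were above the floor in distal colon alone, so these tissue labels had their markers. The log2 ratio of 3' over 5' actin signal, which grows as RNA breaks down, was 2.01 and 1.82 in the control and yogurt liver and 0.66 to 1.09 on the other arrays. That of Gapdh was 1.01 and 1.29 in spleen, 0.98 and 0.86 in liver and 0.05 to 0.23 in the gut.

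**Figure D1:**
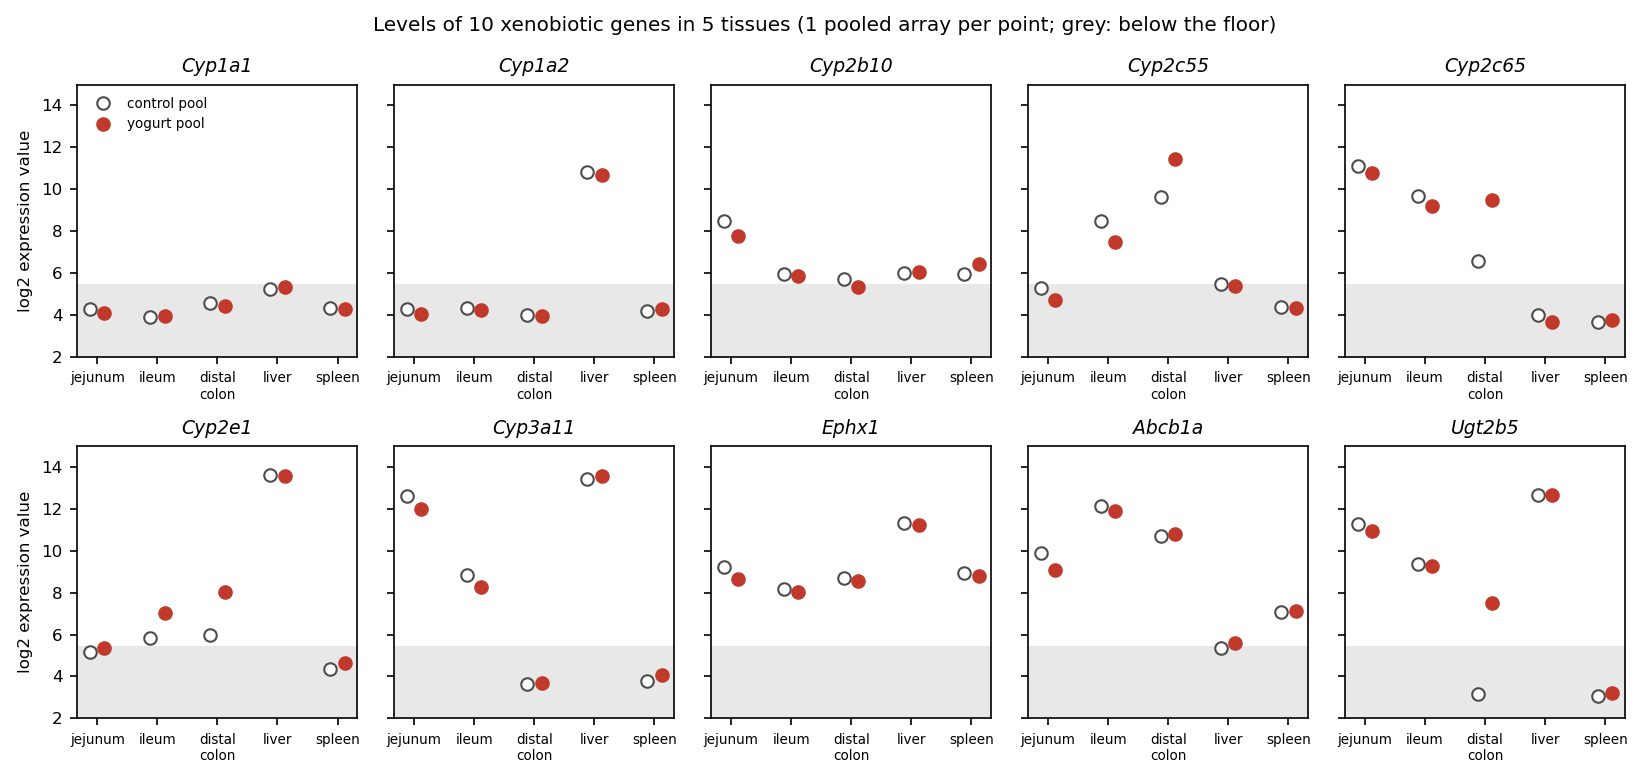
Deposited log2 expression values (vertical axis) of the 10 genes in 5 tissues, with 1 open point for the control pool and 1 filled point for the yogurt pool, for the probe set with the highest mean; the grey band lies below the floor. Points of the 2 diets lie close together in liver and spleen, and far apart in distal colon for Cyp2c55, Cyp2c65, Cyp2e1 and Ugt2b5.

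The widest diet differences were in distal colon. There the yogurt pool carried more transcript of Cyp2c65 (7.63-fold), Cyp2e1 (4.15-fold), Cyp2c55 (3.56-fold) and Ugt2b5 (at least 3.99-fold), while Ephx1, Abcb1a and Cyp2b10 differed by less than 1.5-fold and Cyp3a11 was below the floor on both arrays. Of 8 member probe sets measured in this tissue, 4 were at least 2-fold higher in the yogurt pool, where 0.303% of 23077 measured probe sets were. None was at least 1.5-fold lower, where 0.191% of all were. The median log2 ratio of the 8 was 1.08 against -0.0086 over all measured probe sets. The genes were chosen with earlier results of these data known, so such shares, here and in the other tissues, are a description. A higher level in a whole-tissue RNA pool can come from more cells that hold the transcript or from more transcript in each cell, and these cannot be told apart.

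The 250 bases before the annotated start of the 4 genes that were higher in the colon of the yogurt pool are shown because these genes differed together there. Those of Cyp3a11 are shown because it was below the floor in both colon pools. The sequences are RefSeq's on GRCm38.p6, written 5' to 3' along the gene, and lie at chr19:39006769-39007018 (plus strand), chr19:39060756-39061005 (plus), chr7:140763569-140763818 (plus), chr5:87140341-87140590 (minus) and chr5:145879855-145880104 (minus). Capitals mark a match on either strand to the core promoter box TATAAA, to the nuclear receptor element AGGTCA, to the aryl hydrocarbon receptor core GCGTG or to GTTAAT, an element of the liver and gut factor HNF1.
Cyp2c55: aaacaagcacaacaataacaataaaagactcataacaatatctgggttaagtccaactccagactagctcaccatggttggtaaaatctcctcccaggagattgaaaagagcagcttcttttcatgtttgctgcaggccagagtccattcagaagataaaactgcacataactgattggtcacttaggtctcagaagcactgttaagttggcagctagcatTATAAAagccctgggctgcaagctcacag
Cyp2c65: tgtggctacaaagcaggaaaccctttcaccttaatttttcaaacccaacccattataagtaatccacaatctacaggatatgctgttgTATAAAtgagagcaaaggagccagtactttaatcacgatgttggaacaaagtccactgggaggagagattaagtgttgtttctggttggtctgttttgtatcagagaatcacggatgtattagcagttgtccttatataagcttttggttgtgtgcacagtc
Cyp2e1: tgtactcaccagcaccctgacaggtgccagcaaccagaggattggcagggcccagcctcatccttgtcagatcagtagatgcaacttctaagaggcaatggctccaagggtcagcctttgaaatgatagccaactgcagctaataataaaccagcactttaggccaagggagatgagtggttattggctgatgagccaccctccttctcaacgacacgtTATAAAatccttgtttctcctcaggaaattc
Ugt2b5: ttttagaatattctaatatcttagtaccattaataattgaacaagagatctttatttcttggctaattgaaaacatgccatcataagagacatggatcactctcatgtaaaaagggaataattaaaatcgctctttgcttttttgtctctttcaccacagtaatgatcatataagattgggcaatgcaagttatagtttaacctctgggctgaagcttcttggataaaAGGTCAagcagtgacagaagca
Cyp3a11: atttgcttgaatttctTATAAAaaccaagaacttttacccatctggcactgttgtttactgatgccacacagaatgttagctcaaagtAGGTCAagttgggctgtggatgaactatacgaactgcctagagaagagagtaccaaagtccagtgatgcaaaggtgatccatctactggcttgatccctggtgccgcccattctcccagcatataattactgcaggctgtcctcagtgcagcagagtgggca

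The 4 colonic genes shared none of these motifs across all their windows. TATAAA stood 29 bases before the start in Cyp2c55, 31 in Cyp2e1 and 162 in Cyp2c65, and was not found in the window of Ugt2b5, which held AGGTCA 22 bases before the start. Cyp3a11 held AGGTCA 162 bases and TATAAA 234 bases before the start. Among all 10 genes, 7 windows held TATAAA, against 12.4% of 32851 RefSeq windows of the same length, 2 held AGGTCA (14.0% of all), 2 held GCGTG (28.2%) and 0 held GTTAAT (6.4%). The windows with GCGTG were those of Cyp1a1, 54 bases before the start, and of Cyp2b10, 101 and 9 bases before it. A match of letters is a description and does not show that a factor binds. TATAAA was counted at any distance from the start, so a match need not be a core promoter box. Only exact letters were searched, so TATATAA, nearer the start in the Cyp2c65 window than its marked match, was not counted.

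Cyp2c65 encodes a P450 of the 2C subfamily, whose members oxidise drugs and fatty acids such as arachidonic acid. Its log2 values in control and yogurt pools were 11.13 and 10.77 in jejunum, 9.69 and 9.22 in ileum and 6.56 and 9.49 in distal colon. Values in liver (3.98 and 3.66) and spleen (3.67 and 3.74) were below the floor. The yogurt colon thus stood slightly above the ileum of its diet (ileum minus colon -0.27), whereas the control colon lay 3.13 below the control ileum. The ratio of 2.93 ranked 12 among 23077 measured probe sets of the colon. In the small intestine the same probe set was slightly lower in the yogurt pool (-0.36 in jejunum and -0.47 in ileum). Its name ends in s_at, so it can also bind transcripts of related genes.

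Cyp2c55 encodes another 2C enzyme, known in mouse colon as a fatty acid hydroxylase. Its values were 9.63 and 11.46 in the control and yogurt pools of distal colon and 8.47 and 7.49 in ileum. Jejunum (5.26 and 4.70) and spleen (4.39 and 4.31) were below the floor, and the 2 liver arrays lay at it (5.48 and 5.39). The ratio was 1.83 in colon, rank 26 from the highest, and -0.98 in ileum, rank 14 from the lowest of 23099 measured probe sets. The 2 tissues thus differed in opposite directions by more than 1.5-fold each, a difference between tissues that no test covers. Of 8 colonocyte markers, 3 were higher and 5 lower in the yogurt colon (median -0.13), and 2 of the 4 measured in ileum were higher. The carbonic anhydrase Car1 had ratios of the same signs as Cyp2c55 (1.32 and -1.27), while Saa1 stood at 0.04 and 0.57 and Car4 at 0.40 and 0.15 in colon and ileum.

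Cyp2e1 encodes the P450 that oxidises ethanol and other small molecules, mostly in hepatocytes. Its values were 5.98 and 8.03 in distal colon and 5.84 and 7.04 in ileum, higher in the yogurt pool of both. In jejunum it was below the floor on both arrays (5.17 and 5.37), as in spleen (4.34 and 4.63). In liver, where the probe set was brightest, the 2 pools were almost equal at 13.60 and 13.56. The ileal ratio of 1.20, or 2.30-fold, ranked 16 from the highest of that tissue, and was 0.40, under 1.5-fold, with the floor at the 65th percentile. Both control values lay close to their floors, 5.49 in colon and 5.48 in ileum.

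Adipocyte markers moved in the same tissues as Cyp2e1, which fat cells are also known to express. All 5 measured of 6 were higher in the yogurt pool of colon (median 1.62), and all 5 measured in ileum (median 0.82), with Adipoq at 1.48 in ileum and at least 2.09 in colon. Their summed linear signal was 1868 and 4482 in the control and yogurt colon, 2081 and 4104 in ileum and 1583 and 1756 in jejunum. Lep was below the floor on all gut arrays of these tissues. The part of fat in the Cyp2e1 values was not tested.

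Ugt2b5 encodes a glucuronosyltransferase of the 2B family, whose members conjugate steroids and drugs and resemble each other closely in sequence. Its values in control and yogurt pools were 12.68 and 12.65 in liver, 11.28 and 10.92 in jejunum and 9.37 and 9.28 in ileum. In distal colon they were 3.17 and 7.49, and in spleen 3.07 and 3.21. The control colon was therefore as dim as spleen, far under the floor of 5.49, and the yogurt colon stood 1.79 below the ileum of its diet. Against the floor the yogurt pool was at least 3.99-fold higher, and the deposited values differ by 4.31. Its relatives were looked up after these values were seen. Ugt2b36 was below the floor on both colon arrays, with a higher deposited value in the yogurt pool (4.53 and 5.39). Ugt2b34 (11.68 and 11.83) and Ugt2b35 (9.30 and 9.46) differed little there. Ugt2b1, Ugt2b37 and Ugt2b38 were below the floor in both colon pools.

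Cyp3a11, the main drug-oxidising P450 of mouse liver and small intestine, had no measured diet ratio in colon. Its values there were 3.65 and 3.67, against 8.84 and 8.28 in ileum, 12.59 and 12.02 in jejunum and 13.40 and 13.55 in liver. Both colon pools were thus below the floor for a transcript that was bright in both ileal pools.

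Markers of other segments and cells differed on the same colon arrays. Of 6 ileal markers 4 were measured and all 4 were higher in the yogurt pool (median 0.65), led by the bile acid exporter Slc51a (4.72 and 7.15) and followed by Slc51b, at 0.73, and the bile acid carrier Fabp6, at 0.58. Their summed linear signal was 389 in the control colon and 704 in the yogurt colon, against 24458 and 24126 in ileum, and Fgf15 and Gata5 were below the floor in both colon pools. Of 7 enterocyte markers, 4 were measured and 3 were higher. The brush border phosphatase Alpi read 5.09 and 7.48 and the fatty acid carrier Fabp2 8.76 and 10.39. Vil1 was nearly level (0.07) and Mep1a was lower (-0.18), while Apoa4, Anpep and Lct were below the floor. All 8 smooth muscle markers were lower (median -0.26), with a summed signal of 29766 and 25516. The distal markers Hoxb13 (-0.25), Hoxd13 (-0.24) and Hoxa13 (-0.31) were slightly lower, while the whole colonocyte list, which holds them, had a summed signal of 23358 and 26677. What these shifts contribute to the P450 and Ugt2b5 values was not tested.

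**Figure D2:**
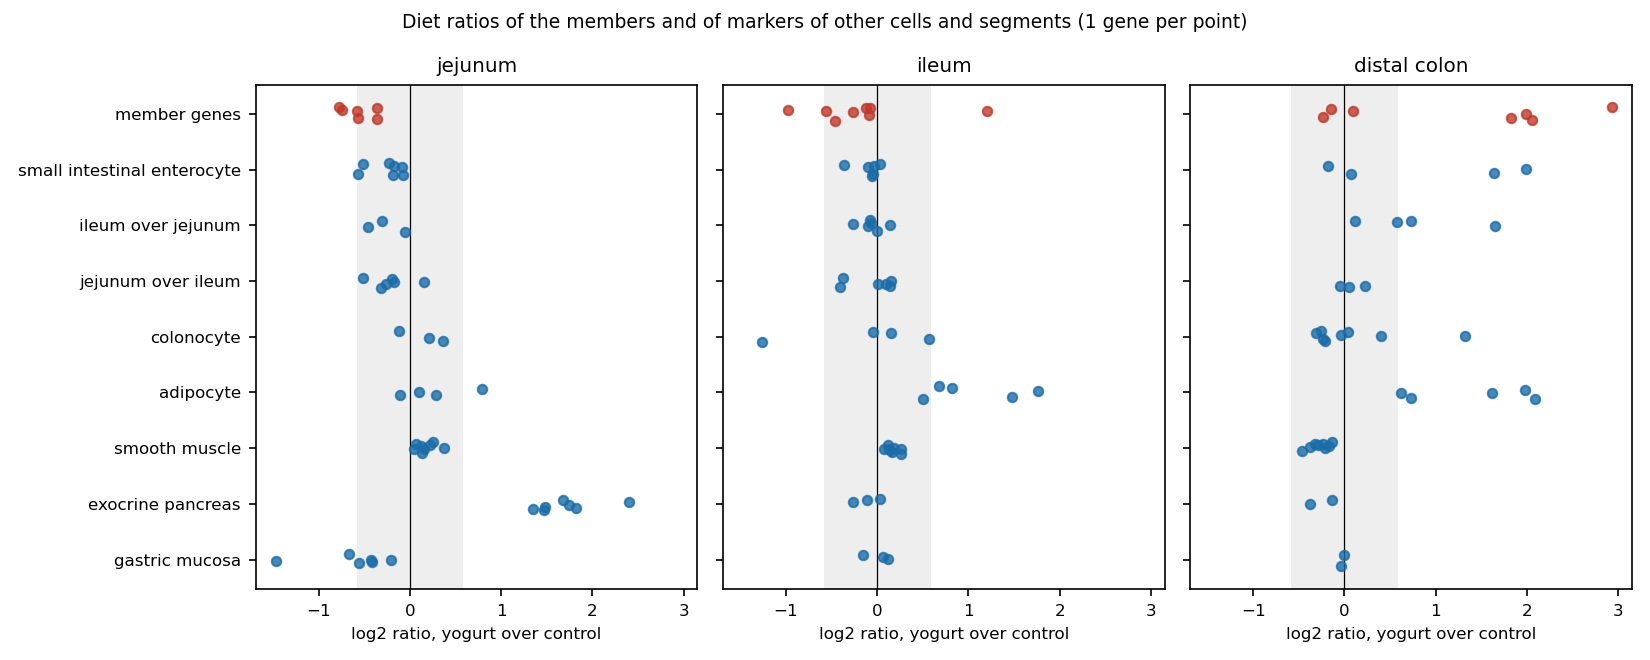
Log2 ratio of yogurt over control (horizontal axis) of the measured member genes and of marker genes, 1 point per gene and 1 panel per gut segment; the grey band is within 1.5-fold. In distal colon 4 members stand between 1.83 and 2.93, on the side of the adipocyte markers and of Alpi and Fabp2. The enterocyte markers Vil1 and Mep1a lie within the band there. In jejunum all members stand below 0 while the exocrine pancreas markers stand above 1.

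In jejunum the members were lower in the yogurt pool without exception among those measured. All 9 measured probe sets, of 6 genes, had negative log2 ratios, from -0.36 to -0.78, where 52.9% of 23100 measured probe sets did. Their median was -0.56 against -0.0090 over all. At least 1.5-fold lower were 2 of the 9, where 0.281% of all were, 1 of Abcb1a and 1 of Cyp2b10.

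Abcb1a encodes P-glycoprotein, the pump that returns drugs from enterocytes to the gut lumen. Its 2 probe sets read 9.95 and 9.88 in the control jejunum and 9.37 and 9.10 in the yogurt jejunum, ratios of -0.57 and -0.78. In ileum they read 12.01 and 12.15 against 11.93 and 11.88, and in distal colon 10.48 and 10.68 against 10.80 and 10.78. Only the jejunal ratio of the second probe set passed 1.5-fold among these 3 gut segments. Spleen values lay between 6.98 and 7.11, and in liver 3 of 4 values were below the floor (4.73 to 5.38) and the fourth was 5.59.

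Cyp2b10 oxidises barbiturate-like drugs and is the standard reporter of CAR activity in mouse liver. Its 3 probe sets read 8.97, 9.09 and 8.49 in the control jejunum and 8.50, 8.67 and 7.75 in the yogurt jejunum, ratios of -0.47, -0.42 and -0.74. The first 2, which end in s_at and can bind related 2B transcripts, were below the floor in the other 4 tissues, with values between 4.19 and 4.84. The third read 5.31 to 6.43 there. In liver it stood at 6.01 and 6.07, so the transcript was clear in jejunum and close to the floor in liver. CAR itself, looked up after these values were seen, read 8.45 and 7.99 in jejunum (-0.46), and PXR read 8.40 and 8.01 (-0.40). Of the 11 measured receptors and P450 redox partners listed, 8 were lower and 3 higher in jejunum (median -0.092). In liver CAR stood at -0.38 and PXR at -0.16, where the third Cyp2b10 probe set stood at 0.05 and Cyp3a11 at 0.15. A link between these receptors and the 2 P450 genes was not tested.

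Cyp3a11 was lower in the yogurt pool of jejunum (12.59 and 12.02, ratio -0.58) and of ileum (8.84 and 8.28, ratio -0.56). These ratios ranked 70 and 100 from the lowest in their tissues, and both lay just inside 1.5-fold. In liver the yogurt pool was slightly higher, by 0.15. Ephx1, which hydrolyses epoxides of many aromatic compounds, read 9.21 and 8.64 in jejunum (-0.56) and lay between -0.15 and -0.09 in the other 4 tissues. Ugt2b5 had a jejunal ratio of -0.36.

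Other tissue in the jejunal samples moved as well. All 7 exocrine pancreas markers were higher in the yogurt pool (median 1.68), with a summed linear signal of 13607.5 in the control and 39963.7 in the yogurt pool, against at most 316 in the other tissues. All 6 measured gastric markers were lower (median -0.49), with sums of 12645 and 8851, against at most 749 in the other tissues. Enterocyte markers were lower in 7 of 7 cases (median -0.18, sums of 36144 and 32119), while smooth muscle markers were higher in 8 of 8 (median 0.14) and macrophage markers in 7 of 7 measured (median 0.31). Their part in the members' lower values was not tested.

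**Figure D3:**
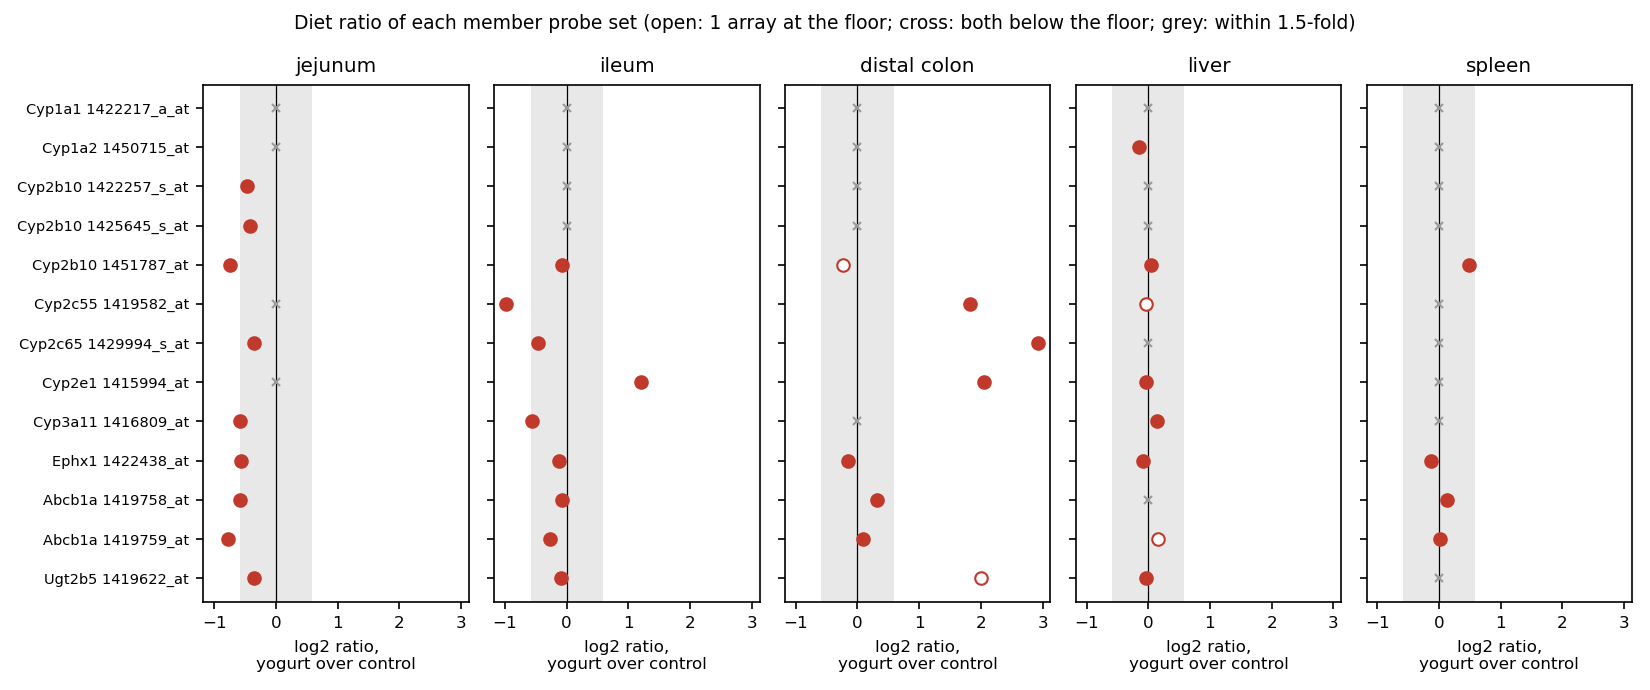
Log2 ratio of yogurt over control (horizontal axis) of the 13 member probe sets (rows) in the 5 tissues (panels). Open points are ratios with 1 array at the floor, crosses are probe sets below the floor on both arrays, and the grey band is within 1.5-fold. Jejunal points lie between -0.78 and -0.36, liver and spleen points within the band, and 4 colon points at or above 1.83.

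The ileal ratios went both ways past 1.5-fold, and no member passed it in liver or spleen. Of 9 measured ileal probe sets, 8 were lower in the yogurt pool, where 59.5% of 23099 were, with a median of -0.13 against -0.034 over all. Cyp2e1 was the 1 at least 1.5-fold higher (0.238% of all probe sets were), and Cyp2c55 the 1 at least 1.5-fold lower (0.372%). With the floor at the 65th percentile, 0 were at least 1.5-fold higher. In liver 0 of 8 measured member probe sets were at least 1.5-fold higher (0.402% of all were) and 0 lower (0.480%). Their ratios ran from -0.15 to 0.16, with a median of -0.031 against -0.022 over all.

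The liver held the brightest values of Cyp2e1, Cyp3a11, Ugt2b5, Ephx1 and Cyp1a2 for each of these probe sets. Cyp1a2, an aryl hydrocarbon receptor target of the liver that oxidises caffeine, read 10.81 in the control liver and 10.66 in the yogurt liver. It was below the floor on all 8 other arrays (3.94 to 4.34). Cyp1a1, the inducible relative, was below the floor everywhere, at 3.88 to 5.33, with liver the highest at 5.25 and 5.33. In spleen 4 member probe sets were measured, and 0 were at least 1.5-fold higher (0.613% of all were) or lower (1.33%). One Cyp2b10 probe set came nearest, at 5.94 and 6.43.

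Differences between tissues could be tested, because each tissue had 2 arrays. A limma fit of tissue and diet over 26888 probe sets was used, with Benjamini-Hochberg adjustment, and a probe set was called at an adjusted p under 0.05 and at least 2-fold. The 2 arrays of a tissue came from different pools of mice on different diets. The fit takes out a diet shift common to the tissues, so the spread includes diet differences that vary between tissues. A gene whose diet ratio differed between tissues had a wide error. Probe sets pass the filter through the tissue in which they are bright, so the counts below are a description. Values at the floor show little spread, so a p against such a tissue can be too small. The floor also replaces lower values, so a difference between a bright tissue and one at the floor is a lower bound in size.

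Along the gut, jejunum exceeded ileum in 5 member probe sets of 12 tested (1.85% of all tested were called) and was lower in 3 (2.16%). Cyp3a11 was higher in jejunum by 3.74 ± 0.19 (SE, limma adjusted p 1.21e-05). Cyp2b10 was higher by 2.20 ± 0.24 to 3.40 ± 0.12 over its 3 probe sets (limma adjusted p at most 0.00056). The jejunal arrays also carried the pancreas and gastric signal given above. The part of that signal in the contrasts of jejunum with ileum and with distal colon was not tested. Both Abcb1a probe sets were lower in jejunum than in ileum, at -2.31 ± 0.18 and -2.52 ± 0.21 (limma adjusted p 0.00011 and 0.00014). The calls of Cyp2c55, at -2.50 ± 0.54 (adjusted p 0.011), and Ugt2b5, at 1.78 ± 0.50 (adjusted p 0.032), were not kept when single arrays were left out. Without either jejunal array or the control ileum, limma's adjusted p of Cyp2c55 was 0.055 to 0.086, and without any 1 of the 4 jejunal and ileal arrays that of Ugt2b5 was 0.054 to 0.20. Cyp2c65, at 1.49 ± 0.74 (limma adjusted p 0.18), was called without either colon array (adjusted p 0.00053 and 0.00057). Ephx1, at 0.83 ± 0.11, passed 2-fold without the yogurt jejunum, at 1.05.

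Distal colon differed from ileum by 1 member probe set called higher (3.93% of all) and 4 called lower (3.52%). Cyp2c55 was higher in colon by 2.57 ± 0.54 (limma adjusted p 0.0058). Its size depended on diet: ileum minus colon was -1.16 in the control pools and -3.97 in the yogurt pools. With single arrays left out the Cyp2c55 difference ranged from 1.53 to 3.61. Cyp3a11 stood at -3.07 ± 0.19, with colon at the floor, and the Abcb1a probe sets at -1.33 ± 0.18 and -1.28 ± 0.21 (limma adjusted p 1.58e-05, 0.00077 and 0.0017). Ugt2b5 stood at -2.84 ± 0.50 (limma adjusted p 0.0026). Cyp2c65 was not called, at -1.43 ± 0.74 (limma adjusted p 0.16). Without the colon array of the yogurt pool its difference was -3.00 and it was called (limma adjusted p 7.4e-05). Cyp2e1, at 0.56 ± 0.50, was called without the control colon, at 1.44 (limma adjusted p 0.025). Ugt2b5 ranged from -1.78 without the control colon to -3.89 without the yogurt colon, and was called in both.

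Distal colon against jejunum gave 3 member probe sets higher (5.87% of all) and 6 lower (4.0%). The higher ones were Cyp2c55 by 5.07 ± 0.54, Cyp2e1 by 1.53 ± 0.50 and 1 of the Abcb1a probe sets by 1.24 ± 0.21 (limma adjusted p 0.00018, 0.035 and 0.0017). Without the colon array of the yogurt pool, Cyp2e1 differed by 0.65 and was no longer called (limma adjusted p 0.23), nor was it without the yogurt jejunum (adjusted p 0.20). That Abcb1a difference was 0.85, under 2-fold, without the yogurt jejunum, while the other Abcb1a probe set (0.98) passed 2-fold without the control jejunum or the control colon, at 1.32 and 1.20. The lower ones were Cyp3a11, at -6.82 ± 0.19, Ugt2b5, at -4.62 ± 0.50, Cyp2c65, at -2.93 ± 0.74, and the 3 Cyp2b10 probe sets, from -2.52 to -3.39. Without the control jejunum the Cyp2c65 call was lost (difference -2.43, limma adjusted p 0.089).

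**Figure D4:**
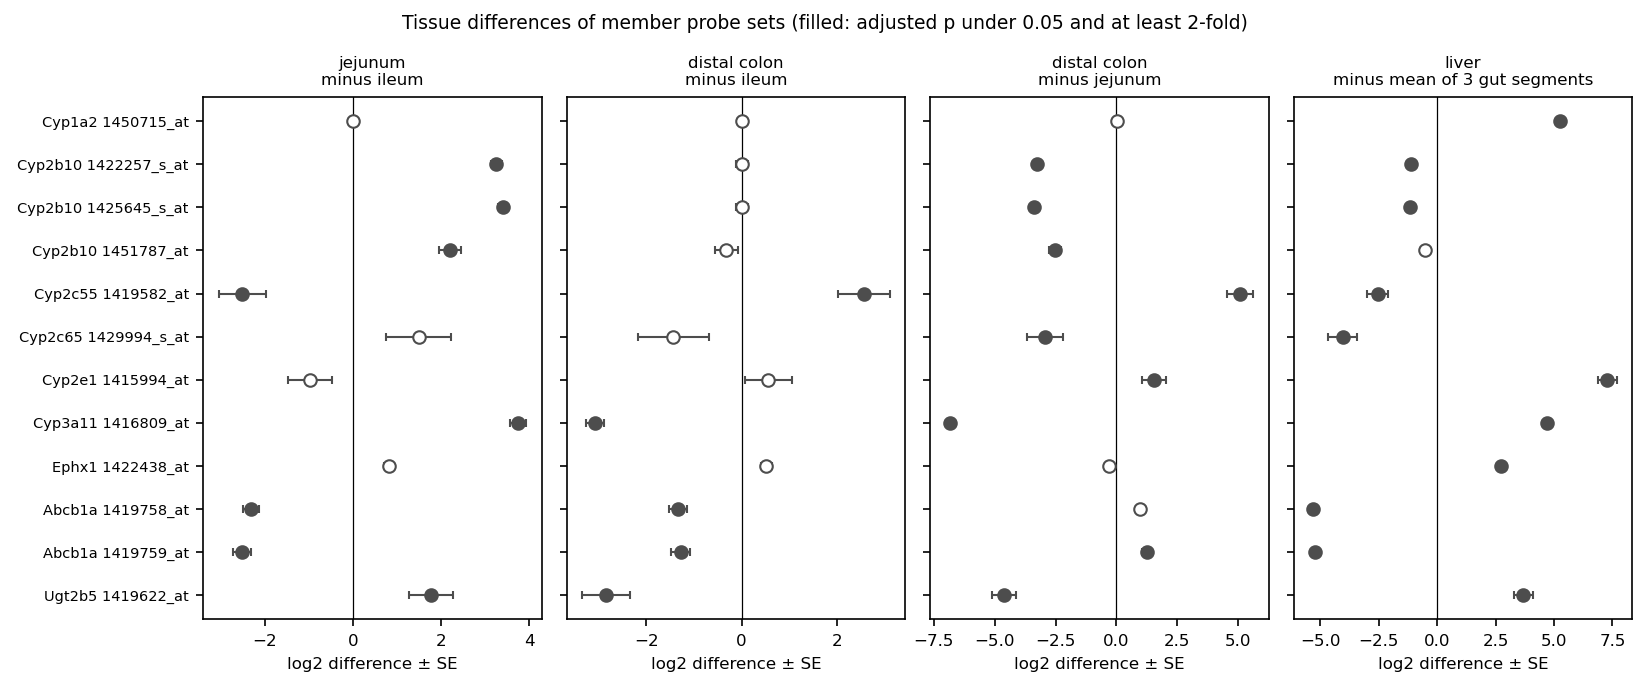
Log2 difference between tissues with its SE (horizontal axis) for the 12 member probe sets tested (rows), 1 panel per contrast; filled points were called by the rule above. Cyp2c55 and Cyp2c65 stand on opposite sides of 0 in the contrast of distal colon with jejunum, and Abcb1a stands at -5.32 and -5.24 in liver.

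Against the mean of the 3 gut segments, liver was higher in 5 member probe sets (9.24% of all) and lower in 6 (12.7%). The higher ones were Cyp2e1 by 7.27 ± 0.41, Cyp1a2 by 5.25 ± 0.06, Cyp3a11 by 4.69 ± 0.15, Ugt2b5 by 3.69 ± 0.41 and Ephx1 by 2.72 ± 0.09 (limma adjusted p at most 8.9e-05). All but that of Ephx1 are lower bounds, since gut values at the floor entered them. Deposited means of Cyp1a2 were 10.73 in liver and 3.97 to 4.29 in the gut segments. Among the lower ones Abcb1a stood at -5.32 ± 0.15 and -5.24 ± 0.17, Cyp2c65 at -4.04 ± 0.61 and Cyp2c55 at -2.54 ± 0.44 (limma adjusted p at most 0.0011). The remaining 2, of Cyp2b10, were called through jejunum alone, being below the floor in liver, ileum and colon alike. With the floor at the 65th percentile both fell under 2-fold in liver (-0.86 and -0.90) and in spleen (-0.81 and -0.86), and with the pseudocount of 32 so did 1 in liver (-0.98) and both in spleen (-0.95 and -0.99). Spleen was higher in 0 (10.5% of all) and lower in 8 (13.9%), and 9 of 12 had an unadjusted p under 0.05, a share like that of all probe sets (76.4%). The ninth was Ephx1, higher in spleen by 0.32 ± 0.09, which is under 2-fold (limma adjusted p 0.015). Cyp2e1 was called lower in spleen without the control colon, at -1.11 against -0.82 ± 0.41 (limma adjusted p 0.0066 against 0.10).

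The diet term of the same fit asks for a shift of 1 size in all 5 tissues. It called 0 of 12 member probe sets higher (0.0112% of all were) and 0 lower (0.00372%), and 1 had an unadjusted p under 0.05, a share like that of all probe sets (9.49%). That was Ephx1, at -0.21 ± 0.07, lower in the yogurt pool of 5 of 5 tissues (limma adjusted p 0.47). Its error is a spread over tissues and says nothing of how mice differ.

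The wider pathway was described with 134 further genes of xenobiotic metabolism in 5 lists, of which 104 had a probe set and 1 probe set stood for each gene. In jejunum 52 of the 63 measured were lower in the yogurt pool (53.5% of all 12271 genes were), with a median of -0.14 against -0.011. At least 1.5-fold lower were 2 (0.244% of all genes were): Slc47a1, a proton-coupled exporter of organic cations (8.08 and 7.42), and Abcc2, a pump for glucuronides (9.42 and 8.83). In distal colon 30 of 57 were higher (45.4% of 12361 genes) and the median was 0.00081 against -0.014. At least 1.5-fold higher were 2 (0.947% of all): Cyp2d26, at 8.30 and 9.13, and Nqo1, a quinone reductase, at 6.18 and 6.93. All 8 measured glucuronosyltransferases and sulfotransferases of the list were higher in colon, each by less than 1.5-fold, with a median of 0.14.

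In ileum 45 of 61 pathway genes were lower (62.1% of 12294 genes) and 1 was at least 1.5-fold lower (0.293%), Arnt, the partner of the aryl hydrocarbon receptor, at 8.28 and 7.66. Over its measured probe sets the ratio ran from -0.63 to -0.42. In liver 67 of 87 were lower (57.8% of 12160 genes), with a median of -0.096 against -0.026, 2 were at least 1.5-fold lower (0.337%) and 1 higher (0.502%). Those lower were Cyp2c54, at 11.16 and 10.55, and Ugt2b38, at 7.24 and 6.59. The higher one was Sult1e1, the estrogen sulfotransferase, at 5.53 and 6.65. In spleen 21 of 38 were lower (61.5% of 11874 genes), and Aldh1a7 was the 1 at least 1.5-fold higher (0.632%). Nqo1, Ugt2b38, Sult1e1 and Aldh1a7 were dimmer than the level set for naming a gene and are given because they complete these counts.

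**Figure D5:**
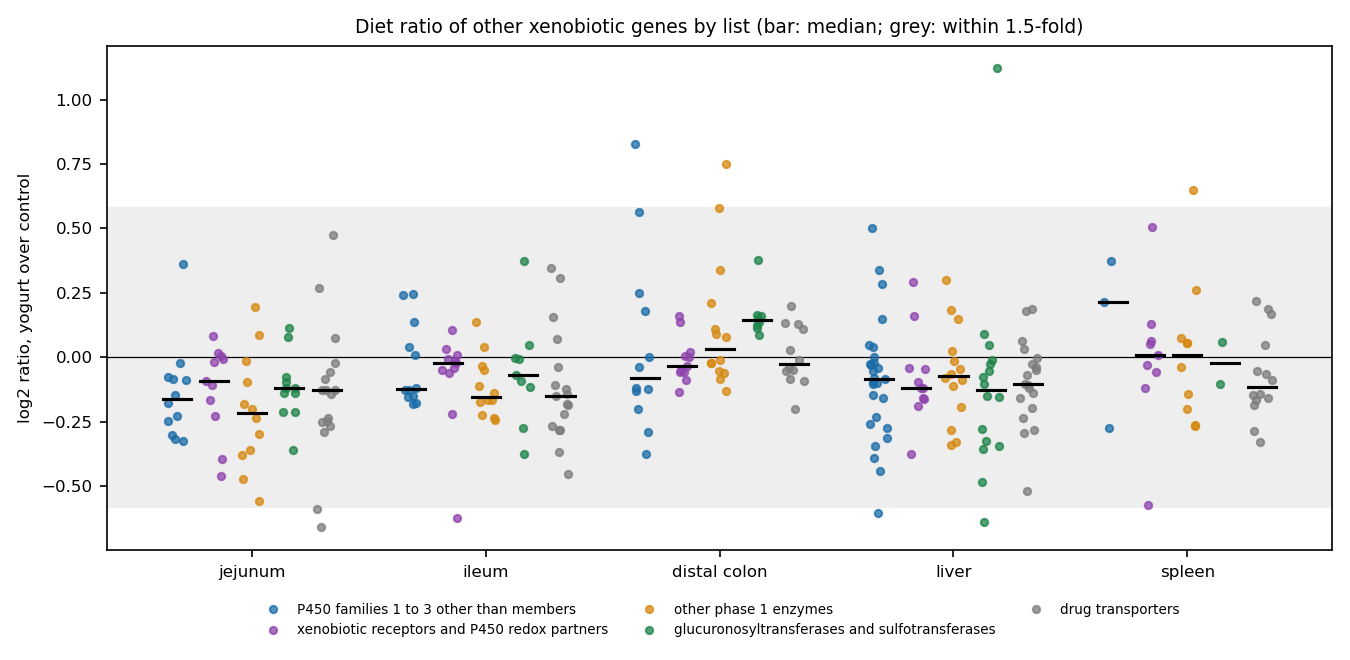
Log2 ratio of yogurt over control (vertical axis) of the measured pathway genes in 5 tissues, coloured by list; bars are medians and the grey band is within 1.5-fold. Jejunal medians lie between -0.22 and -0.09, and the median of glucuronosyltransferases and sulfotransferases in colon at 0.14.

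In the tissue fit 89 of these genes were tested. Liver exceeded the gut mean in 49 and was lower in 11, where 10.5% and 15.7% of 13598 genes were. Among them were 21 and 2 of 27 other P450 genes. Jejunum exceeded ileum in 12 (2.25% of all genes) and was lower in 3 (2.68%). Distal colon exceeded jejunum in 7 (7.65%) and was lower in 22 (4.52%).

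Genes with a like pattern over the 10 arrays were ranked by Pearson's r of the floored values among 13598 genes. The points share tissues, so a high r mostly restates a tissue pattern. Cyp3a11 was closest to Slc2a2, a glucose transporter of liver and small intestine, and to the antimicrobial peptide Leap2 (r of 0.998 and 0.997). Cyp2c65 was closest to Tph1, the serotonin-forming enzyme of enterochromaffin cells, and to Arhgef39 (0.977 each), with colon ratios of 0.81 and 0.52. The colon arrays are among the 10 that gave r, so a shared colon ratio is partly built into this ranking. Cyp2c55 was closest to Kif5c and Grp (0.988 and 0.985), with colon ratios of 0.17 and 0.46. For Ugt2b5 the closest were Ctage5 and Fbp1 (0.993 and 0.985), with colon ratios of 0.16 and 0.11. Cyp2b10 was closest to Tff1, which is on the list of gastric markers, and to Gsdma2 (0.986 and 0.985). The pair for Abcb1a was Igsf3 and Agap1 (0.991 each), and that for Ephx1 was Got2 and Romo1 (0.993 and 0.984). That for Cyp2e1 was Stra6l and Atg5 (0.993 and 0.987), with colon ratios of 0.56 and 0.25. Cyp1a2 was closest to Plin5 and Cyp4a12a (1.00 each) and had 606 genes above 0.95, since many genes are bright in liver alone.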

How the data were processed

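RNA of 9 or 10 mice was pooled per tissue and diet, 100 ng was labelled with biotin, and each pool was hybridised to 1 whole-genome mouse array, per the labels' protocols. The authors deposited log2 expression values per probe set. MAS5 and affy are listed, without role or version, in the submitters' processing notes. Summarisation and scaling are otherwise not given in the sources used here. Precision is limited by the number of arrays. Of 45101 probe sets, 64 are array controls, 34945 carried 1 symbol in the platform annotation (34754 matched by gene number to RefSeq, GRCm38.p6), 932 several and 9160 none. Where 1 probe set stood for a gene, it was the one with the highest mean.

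For ratios and fits, the floor of each array (its 50th percentile) replaced all lower values, and a probe set was measured in a tissue if 1 of the 2 arrays lay above it. A ratio with 1 array at the floor is a lower bound. Tissue contrasts used limma 3.58.1 (lmFit, eBayes with trend, R 4.3.3) on tissue and diet over 10 arrays, with 4 residual degrees of freedom. They took probe sets above the floor on at least 2 arrays. The fit was also run on simulated arrays with independent noise. Those lack pooled mice and diet differences that vary between tissues, so they do not check the p-values given here. Where nothing says otherwise the 2 arrays of a tissue may share technical steps, so p-values measure the spread between these arrays. The genes, lists and tests were chosen with earlier results of these data known. Named pathway genes were the at most 4 highest and 4 lowest per tissue past 1.5-fold and above the 75th percentile, and the 2 most alike genes were named for each member but Cyp1a1, which was never above the floor. Alternatives were floors at the 35th and 65th percentile, no floor, a pseudocount of 32, quantile normalization, centring, 1 probe set a gene, other filters, no trend, gut arrays alone and leaving out each array. Of 86 marker genes, 76 had a probe set. Protein sequences were not used here.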

Additional observations from a re-analysis of the deposited data

Results flagged for a closer look

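Cyp2c55 had diet ratios of opposite sign in 2 tissues, each past 1.5-fold: a log2 ratio of yogurt over control of 1.83 in distal colon and of -0.98 in ileum. With 1 pooled array per diet in each tissue, the difference between these ratios was not tested. Of 8 colonocyte markers on the same arrays, 3 were higher and 5 lower in the yogurt colon (median -0.13), and 2 of the 4 measured in ileum were higher.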

How the results depend on the processing

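The 4 colonic ratios kept their sign under every alternative, all run on the same 2 arrays. Floors, a pseudocount and centring cannot reverse ratios of this size, so the kept sign is no replicate check. Ugt2b5 had log2 ratios of 2.78 and 0.77 with floors at the 35th and 65th percentile, 2.36 with the pseudocount and 4.31 with no floor, since its control value lies under any of these floors. Cyp2e1 in colon had 1.31 with the higher floor and 1.63 with the pseudocount, and in ileum 0.40 and 0.88, so that 0 ileal member probe sets were at least 1.5-fold higher with the higher floor. Cyp2c65 in colon had 2.57 with the pseudocount. The colon median of the members was 0.32 with the 35th percentile floor, 0.77 with the 65th, 1.83 with 1 probe set a gene and 0.32 without probe sets ending in x_at or s_at, where the set of measured members changes. With 1 probe set a gene, fewer probe sets were tested. Member calls were then 3 higher in jejunum over ileum, and 3 lower in liver and 5 lower in spleen against the gut. Calls over all probe sets, higher and lower, were 307 and 365 (main 497 and 580) for jejunum over ileum, 664 and 542 (1058 and 947) for colon over ileum, 1041 and 615 (1579 and 1076) for colon over jejunum, 1423 and 2137 (2484 and 3422) for liver, and 1479 and 2334 (2817 and 3748) for spleen. The diet term called 3 higher and 1 lower over all probe sets, and 0 to 8 higher and 0 to 2 lower across the alternatives.

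Leaving out each array in turn gave 2 to 6 member probe sets higher and 2 to 3 lower for jejunum against ileum, 1 to 2 and 4 to 5 for colon against ileum, and 1 to 4 and 3 to 6 for colon against jejunum. It gave 4 to 5 and 4 to 6 for liver and 0 and 6 to 9 for spleen against the gut, and 0 for the diet term. Without a jejunal array 2 Cyp2b10 probe sets no longer passed the filter. With the 65th percentile floor 4 of 12 member probe sets were called lower in liver and 6 in spleen, where 2541 and 2922 of all 20015 were. In spleen Cyp2e1 was called lower with the 35th percentile floor, no floor or the pseudocount (limma adjusted p 0.0063, 0.00058 and 0.0047), and in jejunum against ileum with no floor (0.047). The tissue term of the fit sets the 2 pools of each tissue side by side, so its diet term is a comparison within tissues. The 5 tissues of a diet were taken to come from the same mice, so the diet term also separates the 2 sets of mice. With 1 pool per tissue and diet, no further pairing was possible. Values near the floor, such as those of Cyp2e1 in the control gut, are limited by signal over background.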
